A study of Homo sapiens with 2 samples.

Results

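The regions described here are those among the R-loop regions called as differing between control and APOBEC3B-depleted cells that lie at the promoters of protein-coding genes. A region was taken when its midpoint lay within 1000 bp of the transcription start site (TSS) of any GENCODE release 44 transcript of a protein-coding gene on chromosomes 1 to 22 and X of GRCh38. Of the 562 regions in the deposited list, 361 met this rule (64.2%, 95% Wilson interval 60.2 to 68.1). Of the rest, 192 lay elsewhere on the same chromosomes and 9 on other contigs of the assembly. R-loops were profiled by CUT&Tag, in which an antibody tethers a transposase that cuts out the DNA around its target, in OMM2.3, an established human uveal melanoma cell line. Both groups expressed RNASEH1_D210N, a V5-tagged and catalytically inactive RNase H1 that binds RNA:DNA hybrids without cutting them, and the transposase was directed by a V5 antibody. The groups were shCtrl cells, with a control hairpin, and shA3B cells, in which a hairpin knocks down the cytidine deaminase APOBEC3B, with 1 library each. The tagged protein came from a transfected plasmid, so what was mapped is the binding of an overexpressed hybrid sensor. The list holds positions alone. Whether the shA3B or the shCtrl library had more signal at a region, and by how much, is not stated in it, and no direction is given for any region below. The depth behind the regions is unknown, there was no replicate check, and the intervals given cover counting error only.

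An R-loop forms when a transcript pairs again with its template strand and leaves the other DNA strand single. Most human promoters of broadly used genes lie in CpG islands, stretches rich in G and C in which the CpG dinucleotide has not been lost from the genome, and R-loops are known to form there just downstream of the TSS. Many of these promoters also start a second transcript in the opposite direction, either a long noncoding RNA (lncRNA) or the mRNA of a neighbouring gene. Such a promoter is called divergent, and a promoter without an upstream partner is called one-sided here.

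The stretches directly upstream of 3 canonical start sites, all inside a region, are printed to show the span of CpG content among the promoters, with each CpG in capitals. All are from GRCh38, 5′ to 3′ on the strand of the gene. They were chosen after their values were seen. JUND encodes a member of the AP-1 transcription factor and has 1 of the widest regions (chr19:18281623-18281772, minus strand). AURKB encodes a mitotic kinase, and its stretch leaves out the 9 bases next to the TSS that lie in exons of protein-coding AURKB transcripts, while a noncoding AURKB transcript starts inside it (chr17:8210585-8210725, minus strand). EXTL1, a glycosyltransferase gene, has a low CpG promoter (chr1:26021625-26021774, plus strand).
JUND: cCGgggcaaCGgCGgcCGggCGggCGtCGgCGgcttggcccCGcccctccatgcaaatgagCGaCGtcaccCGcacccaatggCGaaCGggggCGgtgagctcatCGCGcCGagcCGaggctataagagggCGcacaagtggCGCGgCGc
AURKB: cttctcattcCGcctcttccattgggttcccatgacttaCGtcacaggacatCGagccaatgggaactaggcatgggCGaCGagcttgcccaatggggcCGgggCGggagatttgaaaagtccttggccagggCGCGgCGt
EXTL1: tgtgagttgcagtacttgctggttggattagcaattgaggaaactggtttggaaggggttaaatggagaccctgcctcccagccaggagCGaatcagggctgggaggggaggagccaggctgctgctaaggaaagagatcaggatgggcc
The JUND stretch of 150 bases holds 23 CpGs, the AURKB stretch of 141 bases holds 10, and the EXTL1 stretch of 150 bases holds 1.

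A further 3 stretches show known promoter elements at a pair of stress-response genes and in the gap of a divergent promoter. EGR1, the immediate early transcription factor gene with the widest region, is shown with its CArG boxes, the binding element of serum response factor, in capitals (chr5:138465229-138465478, plus strand). HSPA5, which encodes the chaperone BiP of the endoplasmic reticulum, is shown with CCAAT and CCACG on either strand in capitals (chr9:125241383-125241593, minus strand). The 39 bases between this stretch and the canonical TSS are left out because other HSPA5 transcripts start there. The gap between the TSSs of the histone genes H2BC4 and H2AC6 is shown without 22 bases that belong to longer H2BC4 transcripts (chr6:26123927-26124144, minus strand). In this gap, CCAAT and GGGCGG on either strand and TATAAA on the printed strand are in capitals.
EGR1: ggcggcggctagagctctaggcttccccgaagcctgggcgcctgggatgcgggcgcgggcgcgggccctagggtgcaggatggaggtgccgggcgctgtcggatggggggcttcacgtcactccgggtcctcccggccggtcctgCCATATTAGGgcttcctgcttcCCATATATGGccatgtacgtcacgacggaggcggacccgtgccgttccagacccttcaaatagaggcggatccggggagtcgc
HSPA5: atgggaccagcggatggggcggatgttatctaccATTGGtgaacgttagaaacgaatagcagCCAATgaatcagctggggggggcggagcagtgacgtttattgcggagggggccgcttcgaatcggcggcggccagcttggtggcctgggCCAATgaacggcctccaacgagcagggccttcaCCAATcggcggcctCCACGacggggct
H2BC4 and H2AC6: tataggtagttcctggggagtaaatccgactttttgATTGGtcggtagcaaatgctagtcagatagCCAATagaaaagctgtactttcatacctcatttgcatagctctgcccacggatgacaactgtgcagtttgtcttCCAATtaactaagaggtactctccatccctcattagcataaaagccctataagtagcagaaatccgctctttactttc
The EGR1 stretch holds 2 CArG boxes. The HSPA5 stretch holds 4 CCAAT motifs and 1 CCACG motif. The last of the 4 along the printed strand stands 9 bases before CCACG, the spacing of the endoplasmic reticulum stress element. That arrangement, searched on both strands of the promoter from 250 bp before to 50 bp after the canonical TSS, was found at 21 of 19970 protein-coding genes (0.105%) and at 1 of the 410 genes with a region, which was HSPA5. The histone gap holds 3 CCAAT motifs, 0 GGGCGG motifs and 4 CpGs.

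The first question was how close the regions lay to the start sites and how many genes they reached. The midpoint was a median of 90 bp from the nearest protein-coding TSS, called the anchor below (95% binomial rank interval 78 to 107, n = 361 regions). The rule allowed up to 1000 bp, and 191 midpoints (52.9%) were within 100 bp and 19 (5.26%) were more than 500 bp away. This distance is the value the rule used, taken to the nearest of 145932 protein-coding TSS positions. Short distances, and the share of regions containing the TSS given below, therefore follow in part from the rule and are a description. The farthest accepted midpoints were those at NFIB (988 bp), ERRFI1 (961 bp) and GSTA4 (908 bp), and these 3 regions did not contain the TSS. The nearest ones left out were at TVP23C-CDRT4 (1055 bp), ANG (1218 bp) and ZIC2 (1244 bp). The ANG region was 3638 bp wide and did contain the start site. In all, 342 of the 361 regions (94.7%, 95% Wilson interval 91.9 to 96.6) contained the anchor TSS.

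The regions reached 410 of the 19970 protein-coding genes, or 2.05%, which is the share against which gene groups are read below. A single gene had its TSS near the midpoint at 304 regions, 2 genes at 51 and 3 genes at 6, so the genes are not independent of each other. At 360 of the 410 genes (87.8%, 95% Wilson interval 84.3 to 90.6) the canonical TSS itself was within 1000 bp of a midpoint. The remaining genes were reached at an alternative start site. There were 14 genes with 2 regions and 0 with 3 or more. At 8 of the 14 the regions were less than 150 bp apart, among them TRIM41 and TRIM7, both on chromosome 5. At PER1, a core circadian clock gene, 3027 bp separated them. The others lay 509 bp apart at ERRFI1 and between 2481 and 62152 bp apart at SLC39A1, TAF12, SLC25A35 and SGK3.

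How far the regions reached was measured from the anchor. Since the anchor is the TSS nearest the midpoint, an offset near 0 and a like reach to both sides follow in part from the rule and are given as a description. The median midpoint lay 4 bp downstream of the anchor (95% interval -4 to 20), and 186 regions (51.5%, 95% Wilson interval 46.4 to 56.6) reached farther downstream than upstream. The median reach was 545 bp upstream (95% interval 508 to 576, n = 361) and 500 bp into the gene (95% interval 467 to 542). Most regions went past the first exon, whose median length at the anchor transcripts was 193 bp (95% interval 173 to 206). The downstream edge fell in the first intron at 258 regions (71.5%, 95% Wilson interval 66.6 to 75.9) and in the first exon at 50 (13.9%). It lay in the second exon or farther on at 29 (8.03%), past the end of the transcript at 9 (2.49%), and short of the TSS at 15 (4.16%). The coding start of the anchor gene's canonical transcript was inside 187 regions (51.8%, 95% Wilson interval 46.7 to 56.9). With the start sites of canonical transcripts alone, the median reach into the gene was 551 bp (95% interval 499 to 606, n = 330).

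**Figure D1:**
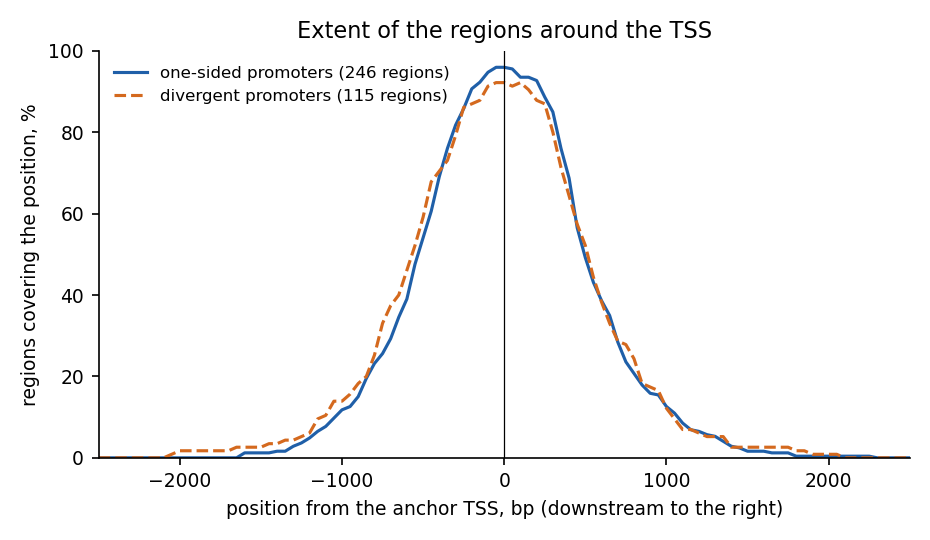
Share of the regions that cover each position around the anchor TSS (x axis in bp, y axis in percent of regions), for 246 one-sided and 115 divergent promoters. Both curves peak near the TSS, at 95.9% and 92.2% of the regions at position 0, and fall to 49.2% and 52.2% at 500 bp downstream.

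Relative to the size of the gene, the reach ranged from the whole transcription unit to less than 1 percent of it. JUND, which has no intron and is 1929 bp long, lay wholly inside its region, which reached 2251 bp downstream of the TSS and 1608 bp upstream. At EGR1 the region covered 1887 bp downstream, or 49.4% of the gene, and ended in the second exon or beyond. The region at CD63, which encodes a tetraspanin of endosomes and melanosomes, covered 1767 bp or 40.3% of the gene. The reach of 2089 bp at CPEB2, an RNA-binding protein gene, was 3.09% of its 67673 bp. At KLHL29 the region went 1787 bp into a gene of 323433 bp (0.553%). WDR74, a ribosome assembly factor gene, had a region that reached 1792 bp downstream. The farthest upstream reach was that of EGR1 (2060 bp), followed by H2BC5 (2042 bp), CD63 (1669 bp), NFIB (1634 bp) and JUND (1608 bp). The NFIB region had a downstream reach of -343 bp, which means that it ended before its anchor TSS.

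The second question was whether promoters that start transcription in both directions carried a different kind of region. A region was divergent when the TSS of another protein-coding or lncRNA gene on the opposite strand lay within 1000 bp upstream of the anchor. This held for 115 of 361 regions (31.9%, 95% Wilson interval 27.3 to 36.8), and 246 were one-sided. The partner was protein-coding at 37 regions and an lncRNA at 78. At 33 of the one-sided regions an opposite-strand TSS lay within 1000 bp downstream, inside the gene, which left 213 regions (59.0%) with no opposite-strand start of a protein-coding or lncRNA gene on either side.

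One-sided and divergent regions had similar dimensions. The median width was 1052.5 bp at one-sided promoters (95% interval 985 to 1132, n = 246) and 1113 bp at divergent ones (95% interval 1004 to 1199, n = 115), and the intervals overlapped. Reach into the gene was 496.5 bp (95% interval 450 to 545) and 508 bp (95% interval 427 to 576). Upstream reach was 534.5 bp (95% interval 495 to 566) at one-sided promoters and 576 bp (95% interval 505 to 660) at divergent ones. Where no protein-coding or lncRNA gene started on the opposite strand on either side, the upstream reach was 532 bp (95% interval 490 to 583, n = 213).

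The position of the region relative to the gene was set out for lncRNA partners beside one-sided promoters, with intervals that overlapped, some only at their ends. With an lncRNA partner the midpoint lay a median of 79 bp upstream of the protein-coding TSS (signed median -79 bp, 95% interval -128 to -2, n = 78), against 8 bp downstream at one-sided promoters (95% interval -3 to 27). The midpoint was on the gene side of the protein-coding TSS at 28 of the 78 (35.9%, 95% Wilson interval 26.1 to 47.0), against 130 of 246 one-sided regions (52.8%, 95% Wilson interval 46.6 to 59.0). The upstream reach with an lncRNA partner was 644 bp (95% interval 524 to 780). The intervals of this reach and of the one-sided one overlapped, and those of the share with a downstream midpoint met at their ends. At an lncRNA pair only the protein-coding TSS could be the anchor, so a region centred on the gap has an upstream midpoint by the rule. From the centre of the gap the midpoint lay a median of 52.25 bp towards the protein-coding gene (95% interval -28 to 112.5, n = 78). With a protein-coding partner 27 of 37 midpoints (73.0%) lay downstream of the anchor. That value cannot be set beside the others, because either gene of such a pair could serve as anchor and the nearer one was taken.

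Most divergent regions spanned both start sites. The gap between the TSSs had a median of 189 bp (95% interval 161 to 232, n = 115) and ranged from 17 to 988 bp. Both were inside the region at 92 of 115 promoters (80.0%, 95% Wilson interval 71.8 to 86.3). This was so for 54 of 60 gaps of up to 200 bp (90.0%), 30 of 39 gaps above 200 and up to 500 bp (76.9%), and 8 of 16 longer gaps. The width showed no order with the gap. Its median was 1094 bp, 1122 bp and 998.5 bp in these 3 classes, and Spearman's rho between width and gap was 0.0296 across the 115 regions, which share 2 libraries. Beyond the partner TSS the region went on for a median of 359 bp (95% interval 258 to 461).

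**Figure D2:**
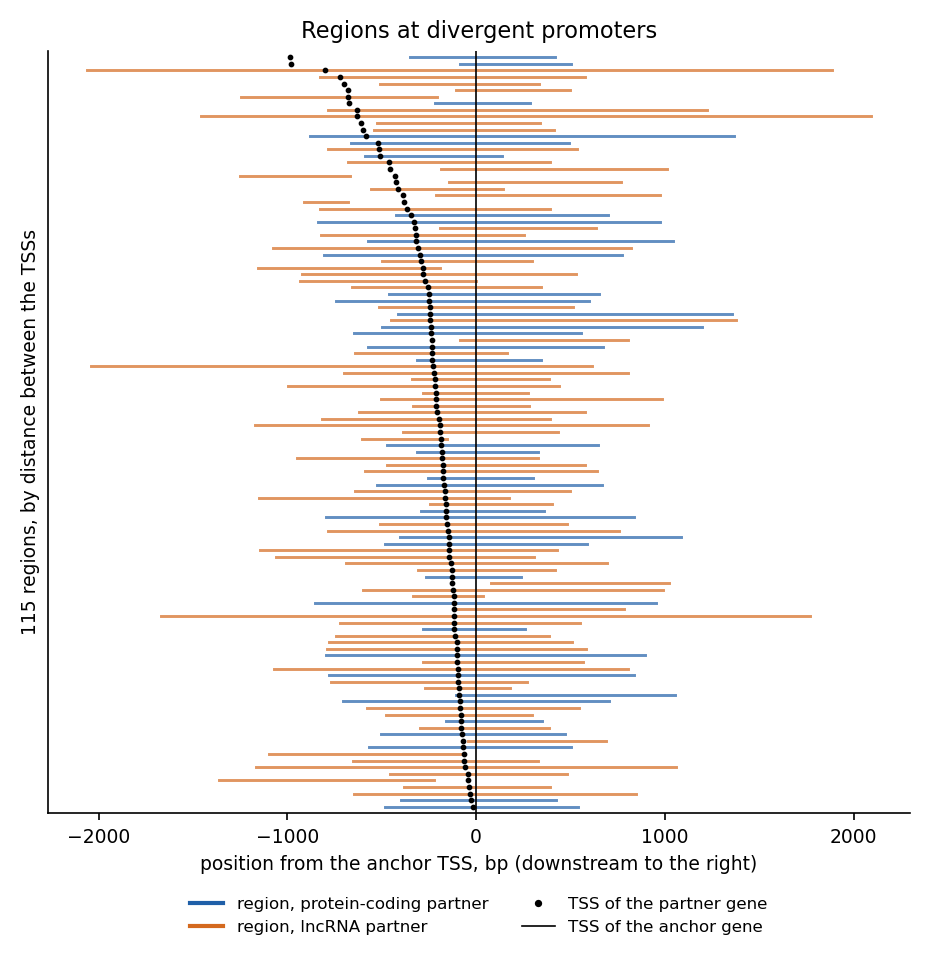
Each of the 115 regions at divergent promoters as a horizontal line, placed by distance from the anchor TSS in bp and sorted from the shortest gap at the bottom to the longest at the top, with a dot at the TSS of the partner gene. Lines are blue for 37 protein-coding and orange for 78 lncRNA partners, and most lines cover both the dot and the anchor TSS at 0.

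The 5 widest divergent regions were at EGR1 with the lncRNA gene ENSG00000289267 (gap 801 bp, width 3948 bp), CPEB2 with CPEB2-DT (629 bp, 3546 bp), CD63 with CD63-AS1 (117 bp, 3437 bp), H2BC5 with ENSG00000289117 (231 bp, 2659 bp) and METTL26 with MCRIP2 (582 bp, 2246 bp). Only the last of these pairs is protein-coding on both sides. Other protein-coding pairs, named after their values were seen, included AGPS, an ether lipid synthesis gene, with NFE2L2, which encodes the oxidative stress factor NRF2. They had the shortest gap, 17 bp, under a region of 1024 bp. The kinetochore gene MIS12 and DERL2, whose product works in protein degradation at the endoplasmic reticulum, stand 120 bp apart in a region of 1805 bp. PSME3, an activator of the proteasome, and BECN1, an autophagy gene, stand 87 bp apart in a region of 1411 bp whose midpoint was 3 bp from the PSME3 start. TMEM258 and FEN1, the flap endonuclease of DNA replication, stand 295 bp apart in a region of 1580 bp.

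Genes with a region were more often divergent than protein-coding genes in general, and most of that difference went with their CpG content. At the canonical TSS, 144 of the 410 genes (35.1%, 95% Wilson interval 30.7 to 39.9) had a divergent partner, against 4684 of all 19970 (23.5%). Among high CpG promoters, defined below, the shares were 37.1% (95% Wilson interval 32.4 to 42.2, n = 369) and 32.2%. For protein-coding partners alone they were 18.2% (95% Wilson interval 14.6 to 22.4) and 17.4% within that class. Without histone genes, several of which stand in divergent pairs, the shares in the high CpG class were 34.9% (95% Wilson interval 30.1 to 40.1, n = 352) and 32.1% for any partner. For protein-coding partners they were then 15.3% (95% Wilson interval 11.95 to 19.5) and 17.3%, which turns the direction.

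The third question was what kind of promoter carried the regions. The CpG ratio, the number of CpGs over the number expected from the C and G content, had a median of 0.816 over the 1000 bp around the canonical TSS of the 410 genes (95% interval 0.805 to 0.830), against 0.725 for all protein-coding genes. A promoter was called high CpG when a window of 500 bp between 700 bp before and 500 bp after the TSS had a ratio of at least 0.75 and a GC content of at least 55%. It was called low CpG when no window reached 0.48, and intermediate otherwise. High CpG promoters made up 369 of the 410 (90.0%, 95% Wilson interval 86.7 to 92.5) and 65.2% of all genes. The list holds no R-loop peaks that did not differ, so all protein-coding genes served as the comparison. Whether the CpG content differs from that at R-loop peaks in general cannot be told. Seen from the classes, 2.84% of high CpG genes had a region, 1.14% of intermediate ones and 0.254% of low CpG ones, against 2.05% overall. Measured at the anchor TSS in place of the canonical one, 327 of 361 regions (90.6%) were at high, 28 (7.76%) at intermediate and 6 (1.66%) at low CpG start sites, and all 6 were one-sided.

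**Figure D3:**
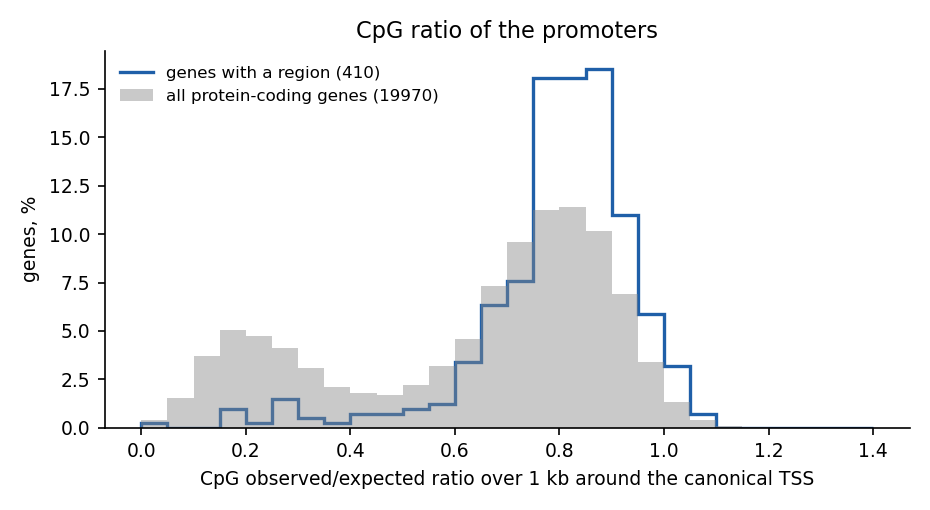
Distribution of the CpG observed/expected ratio over 1000 bp around the canonical TSS (x axis) in percent of genes (y axis), for the 410 genes with a region (line) and all 19970 protein-coding genes (grey). The grey distribution has a lower peak of CpG-poor promoters at a ratio of about 0.2, which the genes with a region nearly lack.

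Within the high CpG class the genes with a region differed less from the rest. Their CpG ratio was 0.830 (95% interval 0.817 to 0.847, n = 369) against 0.804, and their GC content was 64.0% (95% interval 63.3 to 65.0) against 65.2%. Without histone genes the CpG ratio was 0.828 (95% interval 0.816 to 0.845, n = 352) against 0.804, and the GC content was 64.55% (95% interval 63.6 to 65.4) against 65.2%, which lies inside the interval. The regions themselves had a median GC content of 63.9% (95% interval 62.8 to 64.9, n = 361), against 52.0% (95% interval 50.7 to 53.1) for the 192 listed regions elsewhere on these chromosomes. One-sided regions had 64.7% GC (95% interval 63.7 to 65.6) and divergent ones 61.7% (95% interval 60.6 to 63.9), with intervals that overlapped at their ends. Over the 1000 bp around the anchor TSS the values were 64.05% (95% interval 63.3 to 65.3) and 63.8% (95% interval 61.8 to 65.7).

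Nearly all regions touched a CpG island, built here from windows of 200 bp with at least 50% GC and a CpG ratio of at least 0.6. An island was present at 353 of 361 regions (97.8%, 95% Wilson interval 95.7 to 98.9), and a median of 93.9% of the region lay in island sequence. Neither value was computed for all protein-coding promoters or for the regions elsewhere, so they cannot be read as particular to these regions. The islands had a median length of 1197 bp (95% interval 1153 to 1265), close to the width of the regions. Still, 132 of the 353 regions (37.4%) lay wholly inside the island and 66 (18.7%) passed it on both sides. Across these regions Spearman's rho between width and island length was 0.284, and across all 361 it was -0.0526 between width and GC content.

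The low CpG genes were few, and most of them were reached at a start site other than the canonical one. Of the 11 such genes, CHD9NB (CpG ratio 0.0175), EXTL1 (0.168) and the zinc finger gene ZSCAN10 (0.274) had the canonical TSS within the window, at 81, 171 and 349 bp from the midpoint. The other 8 were APOLD1, CARD14, CD72, CHD3, LPO, RNASE11, SEMA4A and VRTN, whose canonical TSSs lay between 3614 bp (CHD3) and 60446 bp (APOLD1) away. At CHD3, LPO, RNASE11 and VRTN the region also lay at another protein-coding gene, NAA38, MKS1, ENSG00000259060 and ABCD4 in that order. At CD72 and APOLD1 the anchor TSS was itself of the high CpG class. Among genes whose canonical TSS had the region, low CpG promoters were thus 3 of 360 (0.833%, 95% Wilson interval 0.284 to 2.42), against 21.7% of all protein-coding genes.

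Width was compared next, since a wide region can hold more than 1 start site or gene. The promoter regions had a median width of 1070 bp (95% interval 1004 to 1132) with quartiles at 764 and 1427 bp, and ranged from 233 bp at DNAJB4 to 3948 bp at EGR1. The 192 regions elsewhere had a median of 881 bp (95% interval 752 to 1042). Narrow regions under 500 bp were 21 of 361 at promoters (5.82%, 95% Wilson interval 3.84 to 8.73) and 46 of 192 elsewhere (24.0%, 95% Wilson interval 18.5 to 30.5). Regions of at least 2000 bp were 27 at promoters (7.48%, 95% Wilson interval 5.19 to 10.7) and 21 elsewhere (10.9%, 95% Wilson interval 7.27 to 16.1). Of the regions elsewhere 93 (48.4%) overlapped a tRNA gene, against 21 at promoters (5.82%). Without any tRNA or other small RNA gene (microRNA genes not counted) the medians were 1048 bp at promoters (95% interval 986 to 1117, n = 329) and 665 bp elsewhere (95% interval 554 to 795, n = 83).

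**Figure D4:**
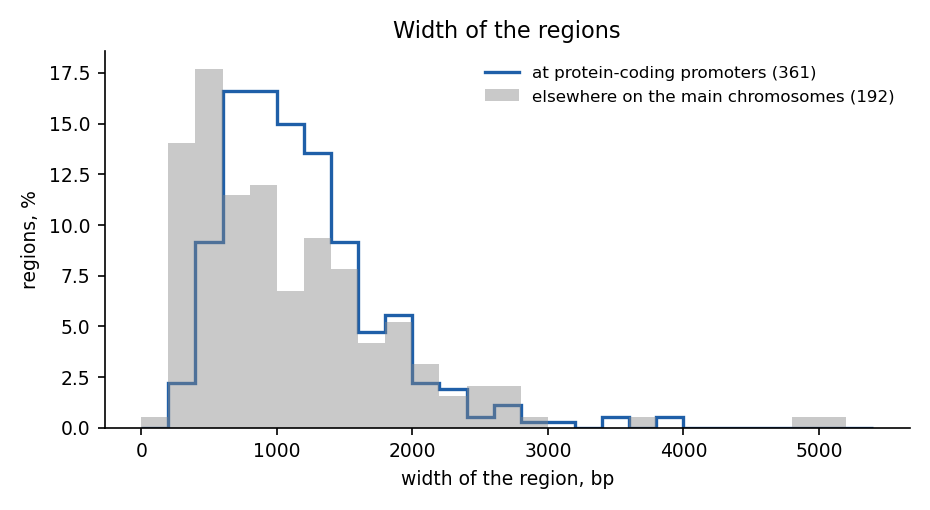
Distribution of region width in bp (x axis, bins of 200 bp) in percent of regions (y axis), for the 361 regions at protein-coding promoters (line) and the 192 regions elsewhere on chromosomes 1 to 22 and X (grey). The promoter regions are most frequent between 600 and 1400 bp, while 24.0% of the others are under 500 bp.

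The intervals of the median width overlapped between regions at 1 gene and at several, and between the CpG classes. Regions at 1 gene had a median of 1070 bp (95% interval 1004 to 1138, n = 304) and those at 2 or 3 genes 1069 bp (95% interval 766 to 1192, n = 57). High CpG anchor genes had 1096 bp (95% interval 1012 to 1138, n = 325), intermediate ones 1041 bp (95% interval 683 to 1352, n = 29) and low CpG ones 732 bp (95% interval 363 to 1582, n = 7). The 10 widest regions were at EGR1 (3948 bp), JUND (3860 bp), CPEB2 (3546 bp), CD63 (3437 bp), WDR74 (3017 bp), KLHL29 (2854 bp), TMEM259 (2734 bp), HMGN4 (2671 bp), H2BC5 (2659 bp) and TMEM131L (2604 bp). A tRNA or other small RNA gene, microRNA genes not counted, lay inside 3 of them, the U2 snRNA locus RNU2-2P at WDR74, the U6 gene RNU6-2 at TMEM259 and 2 tRNA genes at HMGN4. The microRNA gene MIR3188 lies in the JUND region. Reads from such a gene and from the mRNA promoter cannot be told apart in the list.

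A tRNA or other small RNA gene lay in 32 promoter regions (8.86%, 95% Wilson interval 6.35 to 12.2), not counting microRNA genes, which lay in 8 regions. These 32 regions had a median width of 1298.5 bp (95% interval 1043 to 1842), against 1048 bp (95% interval 986 to 1117) without such a gene. The intervals overlapped, and a wider region has more room to hold a small gene, so the grouping itself favours width. The 32 regions had 56.9% GC (95% interval 53.8 to 60.5), against 64.5% (95% interval 63.3 to 65.3). They included LRP3, POLG, KNL1 and SACM1L with tRNA genes, TAF12 with the U11 gene RNU11, POLDIP3 with the U12 gene RNU12, CLASP1 with RNU4ATAC, and CCDC107 with RMRP, the RNA of RNase MRP. At GSTA4 the wider of the 2 regions held RN7SK, the 7SK RNA that restrains transcription elongation. At POLR3E, which encodes a subunit of the polymerase that makes tRNA, the region held the tRNA gene TRL-AAG2-4.

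The structure of the genes was taken from the canonical transcript. Genes with a region were a median of 37667.5 bp long (95% interval 31622 to 45297), against 27476.5 bp for all protein-coding genes, but within the high CpG class the medians were 37610 bp (95% interval 31622 to 44775) and 35913 bp. They had a median of 9 exons (95% interval 8 to 10) against 8, and within the high CpG class 9 (95% interval 8 to 9) against 9. Genes without an intron were 28 of 410 (6.83%, 95% Wilson interval 4.77 to 9.69) against 5.57%, and without histone genes 10 of 392 (2.55%, 95% Wilson interval 1.39 to 4.63) against 5.21%. Within the high CpG class and without histone genes the shares were 2.84% (10 of 352, 95% Wilson interval 1.55 to 5.15) and 2.73%. First exons had a median of 191 bp (95% interval 178 to 213) against 185 bp. Within the high CpG class the medians were 194 bp (95% interval 178 to 217) and 197 bp.

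Short motifs were counted in the promoter from 250 bp before to 50 bp after the canonical TSS, on both strands except TATAAA, for the high CpG genes with a region (n = 369) and for all 13012 high CpG genes. TATAAA, the core of the TATA box, was present in 6.23% (95% Wilson interval 4.19 to 9.18) against 3.37%, and without histone genes in 3.41% (95% Wilson interval 1.96 to 5.86) against 3.07%. CCAAT was present in 40.4% (95% Wilson interval 35.5 to 45.5) against 35.0%, and without histone genes in 37.5% (95% Wilson interval 32.6 to 42.7) against 34.7%. GGGCGG, the GC box, was present in 77.0% against 79.9%. The ETS-type CCGGAAG was in 19.2% against 18.9%, TGACGTCA, the cAMP response element, in 4.07% against 3.57%, and TGANTCA, the AP-1 site, in 3.52% against 2.99%. The E-box CACGTG was in 9.76% against 10.4%, the YY1-type AAGATGG in 9.49% (95% Wilson interval 6.90 to 12.9) against 6.96%, and ACTACAA, part of the ZNF143 element, in 4.61% against 3.34%. The CArG box was in 0.542% against 0.915%, the NRF1 motif in 5.69% against 4.96%, and the G-quadruplex motif in 37.7% (95% Wilson interval 32.9 to 42.7) against 42.1%. None of the motifs spelled out contains another. The share of all high CpG genes lay inside the 95% interval of the genes with a region for each of these 12 motifs except TATAAA and CCAAT. Without histone genes the exception was AAGATGG, in 9.94% (95% Wilson interval 7.24 to 13.5, n = 352) against 6.98%. This did not hold for the wider 50% of the regions. There, over all CpG classes, AAGATGG was in 5.66% of genes (95% Wilson interval 3.27 to 9.63, n = 212), beside 6.42% of all protein-coding genes. A match describes letters in this window and not binding.

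The last question was which classes of genes the regions belonged to, read against the 2.05% of all protein-coding genes. Core and linker histone genes, most of which are transcribed in S phase and lie in clusters, had the highest share among 21 lists, 18 of 81 (22.2%, 95% Wilson interval 14.5 to 32.4). Among the 68 histone genes with high CpG promoters the share was 25%, beside 2.84% over that class. These 18 genes shared 11 regions, so the genes are not separate observations. Of the 18, 17 were on chromosome 6. The widest regions were at H2BC5 (2659 bp), H1-2 (2501 bp) and the pair H2BC13 and H2AC13 (1770 bp). Other pairs of an H2A and an H2B gene in 1 region, named after their values were seen, were H2BC4 with H2AC6, H2BC11 with H2AC11, H2AC12 with H2BC12, H2AC15 with H2BC15, and H2AC17 with H2BC17, which also took in H3C12. Chromosome 6 as a whole had regions at 42 of its 1051 genes (95% Wilson interval 2.97 to 5.36%), and without histone genes at 2.51% (25 of 996, 95% Wilson interval 1.71 to 3.68). The lowest share was on chromosome 19, 0.949% (14 of 1476, 95% Wilson interval 0.566 to 1.59).

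**Figure D5:**
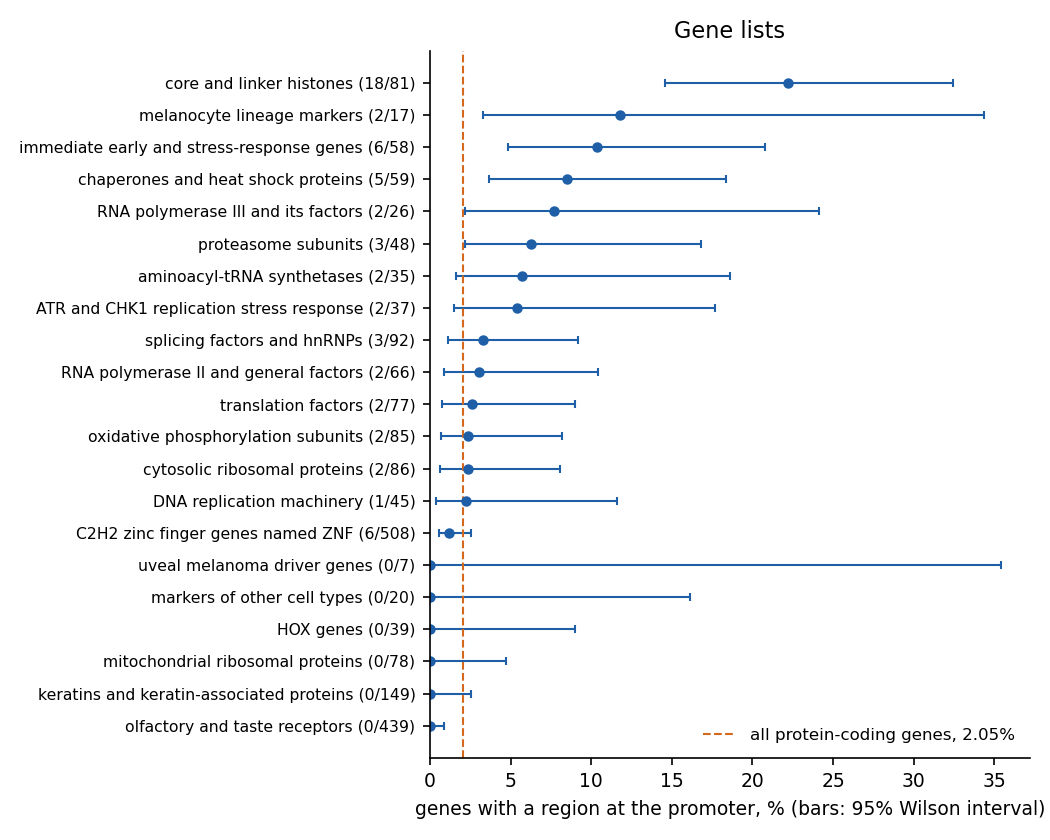
Share of the genes of each of 21 lists with a region at the promoter, in percent with 95% Wilson intervals, with the count over the list size beside each name and a dashed line at the 2.05% of all protein-coding genes. Histone genes have the highest share (22.2%), and 6 lists have no gene with a region.

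Immediate early genes, which are induced within minutes of a stimulus, were listed together with other stress-response genes. Of these 58 genes, 6 had a region (10.3%, 95% Wilson interval 4.83 to 20.8). They were EGR1 (3948 bp), JUND (3860 bp), CCN1 (1795 bp), which encodes a secreted matrix protein, the RNA-binding protein gene ZFP36L1 (1113 bp), KLF6 (932 bp) and NR4A2 (837 bp). All 6 had high CpG promoters, and 4 of them were one-sided. High CpG members of this list numbered 56 and had a share of 10.7%, beside 2.84% over that class. Chaperone genes had a region at 5 of 59 (8.47%, 95% Wilson interval 3.67 to 18.4). They were HSPA5 (1456 bp), the co-chaperone BAG3 (1435 bp), the mitochondrial chaperonin HSPD1 (900 bp), HSPA6 (539 bp) and DNAJB4 (233 bp). HSPD1 was reached at 759 bp and DNAJB4 at 796 bp from the midpoint, and with a window of 500 bp the count fell to 3. Among the 49 high CpG chaperone genes the share was 8.16%.

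Lists of the RNA and protein machinery had between 0 and 3 genes with a region each. Their high CpG members are given beside the 2.84% of that class. Cytosolic ribosomal proteins had 2.53%, translation factors 2.67%, oxidative phosphorylation genes 2.74%, mitochondrial ribosomal proteins 0% and splicing factors 3.53%. RNA polymerase II genes had 3.13%, RNA polymerase III genes 8.33%, proteasome genes 7.89% and synthetase genes 6.45%. With so few genes in each list, no order against the class share is read from these values. Cytosolic ribosomal proteins had a region at 2 of 86 (2.33%), RPS29 (1231 bp) and RPLP0 (825 bp), and the RPS29 region held RN7SL1, the RNA of the signal recognition particle. Translation factors had 2 of 77 (2.60%), EIF5 and EIF4EBP1, of which EIF4EBP1 lay 736 bp from the midpoint and was lost with a window of 500 bp. There were 2 of 35 among aminoacyl-tRNA synthetases (5.71%, 95% Wilson interval 1.58 to 18.6), AARS1 and AARS2. Splicing factors had 3 of 92 (3.26%), SRSF11, RBM10 and LSM4. RNA polymerase II and its general factors had 2 of 66 (3.03%), TAF12 and TAF13, and RNA polymerase III and its factors 2 of 26 (7.69%, 95% Wilson interval 2.14 to 24.1), POLR3E and GTF3C6. Proteasome genes had 3 of 48 (6.25%, 95% Wilson interval 2.15 to 16.8), PSME3, PSMB2 and PSME4, of which PSME3 and PSME4 are activators. Oxidative phosphorylation genes had 2 of 85 (2.35%), ATP5IF1 and NDUFB11. NDUFB11 and RBM10 share the same region, which is thus counted in both lists, and the PSME4 region is that of its divergent neighbour ACYP2. Mitochondrial ribosomal proteins had 0 of 78, which allows a share of up to 3.85% by counting error alone.

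Genes of replication and of its stress response had shares whose intervals included the 2.05%. Among high CpG promoters, with a share of 2.84% over all genes, those of the stress response had 5.71% and those of the replication machinery 2.33%. Of 37 genes of the ATR and CHK1 response, 2 had a region (5.41%, 95% Wilson interval 1.495 to 17.7). They were HLTF, a translocase that remodels stalled forks (1208 bp), and BLM, the Bloom syndrome helicase (1199 bp). Among 45 genes of the replication machinery FEN1 was the only one (2.22%, 95% Wilson interval 0.393 to 11.6). Genes that the study names were also looked up. It names AURKB, CDC27 and MCM4 as proteins bound to R-loops, and CDC45 for APOBEC3B and R-loop peaks at the gene. RNASEH1 and APOBEC3B are named for their function and expression. These are other measures than a difference between the 2 libraries, so presence or absence here does not bear on them. AURKB had a region of 884 bp whose midpoint was 76 bp from a TSS, at an intermediate CpG promoter with a ratio of 0.635. No region was listed within 1000 bp of a start site of CDC45, MCM4, CDC27, RNASEH1 or APOBEC3B. The nearest midpoint was 31187 bp away for MCM4, 134797 bp for CDC27, 664622 bp for APOBEC3B, 1950183 bp for CDC45 and 16792703 bp for RNASEH1.

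Cell type markers were looked up as a description, since a list of differences within 1 cell line cannot check what the cells are. Of 17 melanocyte lineage genes 2 had a region (11.8%, 95% Wilson interval 3.29 to 34.3), GPR143, the ocular albinism receptor (911 bp), and MLANA, the melanosome antigen Melan-A (428 bp). MLANA was of the intermediate class with a CpG ratio of 0.277. Markers of blood, endothelial, epithelial, stromal, retinal pigment and liver cells had 0 of 20, which allows up to 15.0%, and uveal melanoma driver genes 0 of 7, which allows up to 42.9%. Of the 20 markers 4 have high CpG promoters, against 8 of the 17 melanocyte lineage genes. Absence from a list of differences does not tell whether a gene had an R-loop in either library. HOX genes had 0 of 39, which allows up to 7.69%, although 32 of them have high CpG promoters. Zinc finger genes named ZNF had 6 of 508 (1.18%, 95% Wilson interval 0.542 to 2.55), of which the widest were ZNF697 (1488 bp), ZNF184 (1324 bp), ZNF213 (1027 bp) and ZNF16 (866 bp). Among the 386 ZNF genes with high CpG promoters the share was 1.55%, beside 2.84% over that class. Olfactory and taste receptors had 0 of 439, which allows up to 0.683%, and keratins and keratin-associated proteins 0 of 149, which allows up to 2.01%. Of those 439 and 149 genes, 3 and 5 have high CpG promoters.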

How the data were processed

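R-loops were profiled in 1 shCtrl and 1 shA3B library of OMM2.3 cells, grouped by the sample titles. Per the methods of the study and the submitters' processing notes, the authors trimmed reads with Cutadapt 4.1, aligned them to GRCh38 with Bowtie2 2.2.5, removed duplicates with Picard 2.27.3, filtered with SAMtools 1.15.1, called peaks with SEACR 1.3 and compared the libraries with edgeR. Normalization, dispersion and thresholds of that comparison are not given in the sources used here, and neither group has a replicate from which edgeR could estimate a dispersion. The list the authors deposited holds 3 columns, the chromosome, start and end of each region, and no measured value.

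Starts were converted to 1-based positions, and regions were annotated with GENCODE release 44. RefSeq gave the tRNA genes. Members, gene lists and motifs were chosen with earlier results of these data known, so counts are descriptions, and no p-value was computed. Named genes followed a rule: the 10 widest regions, the 5 reaching farthest to each side, the 5 widest divergent ones, up to 4 per list, 3 on each side of the 1000 bp limit, genes with 3 or more regions, 6 genes the study names, and low CpG genes. All other genes named, among them those with 2 regions or with a small RNA gene, were chosen after their values were seen. Shares have Wilson intervals and medians binomial rank intervals, both at 95%. They cover counting error only and treat regions as independent, which neighbours are not. A count of 0 was given the limit of 3 counts. Some items are not reported here. The functions recovered the planted values on simulated data. Python 3.11.15, numpy 2.4.6, scipy 1.17.1 and matplotlib 3.10.9 were used.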

Additional observations from a re-analysis of the deposited data

How the results depend on the processing

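With 1 library per group, no score and no direction in the list, the thresholds behind the regions could not be varied, and the wider 50% of the regions stood in for a stricter list. That setting gave 181 regions and 212 genes, and a median reach into the gene of 729 bp, which follows from taking the wider regions. Counting only protein-coding partners gave a divergent share of 10.2%. A CpG ratio over 500 bp in place of 1000 bp was 0.873, and canonical transcripts alone gave a reach of 551 bp. Of 54 main values under alternatives, 48 stayed within their 95% interval or within 1.5 times their count, including all those with other windows around the TSS, any base in place of the midpoint, merged regions, and regions at tRNA genes left out. Leaving out regions at any small RNA gene was chosen after seeing the data and changed none of its 5 values beyond these bounds. Among all 206 values, single gene lists and motifs included, 24 moved. With windows of 500 and 3000 bp the share of regions containing the TSS was 98.8% and 91.0%. The 500 bp window also took the chaperone count to 3 and the translation factor count to 1. The other motifs and lists that moved did so with the wider 50% of the regions. Among the motifs, AAGATGG fell from 9.51% to 5.66% of genes. TATAAA rose from 6.34% to 9.43% and the G-quadruplex motif from 37.1% to 44.8%. No paired analysis was possible because of the design with 1 library per group.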

Other observations

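A pair of gene lists was written after the gene names at the regions had been seen, so their shares describe what prompted them and support nothing. Of 60 genes of the unfolded protein and amino acid response, which restores protein folding and amino acid supply under stress, 14 had a region (23.3%, 95% Wilson interval 14.4 to 35.4), beside 2.05% of all protein-coding genes. They included the chaperone HSPA5 (1456 bp), HERPUD1 (1615 bp), DERL2 (1805 bp) and DNAJC3 (1138 bp), which act at the endoplasmic reticulum. The secreted stress factor GDF15 (2290 bp), TRIB3 (1309 bp), a pseudokinase induced by the factor ATF4, and ASNS, the asparagine synthetase (697 bp), were also among them. So were the amino acid transporter genes SLC3A2 (1883 bp), SLC1A5 (1845 bp) and SLC1A4 (1546 bp), PHGDH, the first enzyme of serine synthesis (1488 bp), AARS1 (1122 bp), EIF4EBP1 (703 bp) and VEGFA (2012 bp). The PHGDH region is that of its divergent neighbour ZNF697. These counts overlap with lists given above, since HSPA5 is also a chaperone, AARS1 a synthetase and EIF4EBP1 a translation factor.

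Of 30 genes of the NRF2 oxidative stress response 4 had a region (13.3%, 95% Wilson interval 5.31 to 29.7). NFE2L2 encodes the transcription factor itself (1024 bp) and KEAP1 the adaptor that marks it for degradation (1997 bp), and PRDX1 (1369 bp) and TXNRD1 (681 bp) encode antioxidant enzymes. All 4 had high CpG promoters, and the NFE2L2 region was shared with its divergent neighbour AGPS.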
